A study of Mus musculus with 78 samples.

Results

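The transcripts of 10 transcription factors of the naive pluripotent state were followed in mouse embryonic stem cells (mESCs) that lost the transcription factor ZFP143 and in the same cells exposed to retinoic acid (RA). The genes, Nanog, Pou5f1, Sox2, Klf2, Klf4, Esrrb, Tfcp2l1, Zfp42, Tbx3 and Prdm14, were listed by name, with no threshold on their values, though with earlier results of these data known. They are 10 of the 55401 genes of each count table, and all 10 were found and passed the filter on low counts in the 3 tables used, which tested 17870, 13925 and 15915 genes.

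All libraries came from E14TG2a mESCs, an established mouse line, in which both alleles of Zfp143 carry an FKBP degron and an HA tag, so the DMSO controls have the tagged protein too. Selected homozygous clones were used, and the number of clones behind the libraries is not given in the sources used here. Transient transcriptome sequencing (TT-seq), which reads RNA labelled within minutes and so reports ongoing transcription, was performed in DMSO and after 2, 6 and 24 h in 500 nM dTAG-V1, the molecule that sends the tagged protein to degradation. RNA-seq, which reads accumulated RNA, covered DMSO and dTAG-V1 for 24, 48 or 72 h. A separate RNA-seq experiment held cells after 24 h in DMSO or dTAG-V1, and cells that were then washed and kept for another 24 h with RA while DMSO or dTAG-V1 continued, so the depleted RA cells had been without ZFP143 for 48 h. RA was given in an N2B27 differentiation medium in place of the 2i/LIF stem cell medium, so each RA effect includes the change of medium. Each group had 2 libraries, described as biological replicates, and p-values measure the spread between such pairs.

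Naive pluripotency is the state of the cells of the early epiblast before implantation. A network of transcription factors holds it in culture, with POU5F1 (OCT4), SOX2 and NANOG at its core, and with KLF2, KLF4, ESRRB, TFCP2L1, TBX3 and PRDM14 as partners that tie it to LIF and to the inhibition of ERK and GSK3 in 2i medium. The factors bind each other's enhancers, and the network is taken apart when stem cells leave the naive state. OCT4 and SOX2 also act in the later, formative and primed states of pluripotency.

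ZFP143 ChIP-seq peaks, called by the authors with the HA tag, lay at the start of 2 of the 10 genes, Nanog and Zfp42. The background was the tested genes with an annotated coding or long non-coding transcript start on a chromosome with ZFP143 peaks, which numbered 15636 (TT-seq), 13064 (RNA-seq over depletion) and 14676 (RNA-seq with RA). Of these, 14.6%, 15.8% and 14.8% had a peak at a start. The Nanog peak (chr6:122707370-122707746, mm10) was 377 bp long and overlapped the first exon of all 3 annotated transcripts of Nanog (chr6:122707489-122714633, + strand), with its summit 24 bp downstream of the start. Its fold enrichment over input was 13.4 with a −log10 q of 27.1, and 37.3% of the 3189 ZFP143 peaks had a lower enrichment. The Zfp42 peak (chr8:43305652-43306166) was 515 bp long and lay in the first intron of Zfp42 (chr8:43295063-43306980, − strand), with its summit 1038 bp downstream of the start. It was enriched 39.6-fold with a −log10 q of 115, above 70.9% of all peaks. Within 10 kb of a start there was 1 more peak, at −5.2 kb, upstream, of Prdm14 (chr1:13113457-13127163, − strand), with a fold enrichment of 7.13 and a −log10 q of 7.48. That makes 3 of 10 genes, against 18.2%, 19.1% and 18.1% of the background genes.

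The sequences under both peaks at starts are shown because they are where ZFP143 was measured on these genes. The first is the part of the Nanog peak before the first start (chr6:122707370-122707488, + strand), with capitals on the run TTTGCATTACAATG, in which the octamer letters TTTGCAT, of the kind bound by OCT4, and the SOX letters ACAATG stand 1 base apart. The second is 200 bases around the summit of the Zfp42 peak (chr8:43305842-43306041, − strand), with capitals on TTCCCAG, letters from the middle of the ZFP143 binding sequence. Both were read from the RefSeq genome GRCm38.p6.
Nanog: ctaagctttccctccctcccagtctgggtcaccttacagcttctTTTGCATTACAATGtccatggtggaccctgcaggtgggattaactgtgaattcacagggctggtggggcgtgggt
Zfp42: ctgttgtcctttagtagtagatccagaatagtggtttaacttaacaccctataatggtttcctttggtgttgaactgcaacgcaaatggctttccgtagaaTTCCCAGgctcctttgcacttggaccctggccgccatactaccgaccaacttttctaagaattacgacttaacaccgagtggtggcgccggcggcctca

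The octamer and SOX run of Nanog began 75 bp before its first start and 99 bp upstream of the ZFP143 summit. Searched on both strands of the 300 bases around each summit, TTTGCAT and ACAATG at this spacing were found in 2 of 3189 ZFP143 peaks, 0.0627%, of which that of Nanog was 1, while TTTGCAT was in 5.52% and ACAATG in 13.7% of peaks. Letters of the known ZFP143 site were sought in the same windows, and ACTACA was in 40.1% and TTCCCAG in 33.7% of peaks. Neither was in the window of Nanog, and the window of Zfp42 held TTCCCAG, 8 bp from the summit. These matches describe letters and are not mapped binding sites.

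Promoter sequences of 300 bases in RefSeq (GRCm38.p6) were matched for 8 of the 10 genes, some with more than 1 start. Entries for Tbx3 and Prdm14 were missing. TTTGCAT and ACAATG 1 base apart occurred in 2 of 32851 promoters, 0.00609%, and both were starts of Nanog. TTTGCAT was in the promoters of 3 members (Nanog, Sox2 and Zfp42) and in 4.63% of all promoters, and ACAATG was in those of 3 members (Nanog, Pou5f1 and Esrrb) and in 12.6% of all. The KLF-type letters GGGNGGGG were found for 7 members and in 33.2% of all promoters, and the ESRRB letters TCAAGGTCA for 0 members and in 0.423%.

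For the other 7 genes the nearest ZFP143 peak was farther away. Counted from the start, with a minus sign for upstream, it lay at −31.1 kb for Esrrb (chr12:86361117-86521628, + strand), 50.1 kb for Tbx3 (chr5:119670669-119684724, + strand), 124.8 kb for Klf2 (chr8:72319033-72321656, + strand) and 167.7 kb for Pou5f1 (chr17:35506018-35510772, + strand). It lay at −168.6 kb for Tfcp2l1 (chr1:118627945-118685168, + strand), 483.3 kb for Sox2 (chr3:34650405-34652461, + strand) and 539.3 kb for Klf4 (chr4:55527143-55532466, − strand). CTCF peaks, 22314 in all, lay at the start of 5 of the 10 genes, Pou5f1, Sox2, Klf2, Klf4 and Tbx3, against 19.1%, 19.9% and 19.6% of the same background genes. CTCF is the insulator protein that anchors chromatin loops. No gene of the 10 had both proteins at its start. Sox2 lies within Sox2ot on the same strand, Pou5f1 and Tbx3 overlap the antisense genes Gm19553 and Tbx3os1, Tfcp2l1 overlaps 3 small genes, and Zfp42 may share reads with the pseudogene Zfp42-ps1, so their counts carry that uncertainty. For Pou5f1 and Tbx3 it concerns RNA-seq, whose strand setting is not given, as the authors split TT-seq reads by strand before counting.

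Total counts per library were 9721568 to 16532077 in TT-seq, 10261851 to 15316700 in the RNA-seq time course and 13890761 to 27089033 in the RA experiment. The common biological coefficient of variation was 17.2%, 3.65% and 5.92%, so the nascent data had the widest errors. The transcript of the targeted gene, Zfp143, rose in dTAG-V1 and was 71.3 and 74.4 CPM (read counts scaled to the library's size by TMM) in DMSO against 161 to 169 CPM in the 6 depleted TT-seq libraries. In RNA-seq it was 43 and 44.3 CPM in DMSO and 90.8 to 111 CPM in depletion, and in the RA experiment 35 to 44.9 CPM in DMSO and 89.6 to 107 CPM in dTAG-V1. Degradation acts on the protein, which these tables do not measure, so the transcript separates the groups without showing the loss of ZFP143. In bulk RNA, fewer cells of a type and less RNA per cell cannot be told apart.

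In DMSO, the 10 transcripts spanned a wide range once counts were divided by exon length. Pou5f1 was the highest at 499 ± 13 CPM per kb (SD, n = 2), followed by Nanog at 343 ± 6.38, Zfp42 at 319 ± 5.68, Klf2 at 260 ± 11.4 and Sox2 at 252 ± 4.18 CPM per kb. Esrrb stood at 159 ± 1.97, Tfcp2l1 at 135 ± 3.18, Klf4 at 62.3 ± 0.311, Prdm14 at 26.9 ± 0.0228 and Tbx3 at 26.4 ± 0.912 CPM per kb. Klf2 and Sox2, and likewise Prdm14 and Tbx3, did not differ beyond their spread. Together the 10 genes summed to 6120 to 6200 CPM in DMSO and to 4280 to 4330 CPM after 72 h of depletion.

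To see whether transcription of these genes changed soon after ZFP143 loss, nascent RNA was compared with DMSO. At 2 and 6 h, 0 of the 10 genes were called (edgeR quasi-likelihood test, adjusted p under 0.05 and log2 change over 0.5 in size), where 2.44% and 2.87% of all tested genes were called lower and 0.173% and 0.414% higher. At an unadjusted p under 0.05 the counts were 0 at 2 h and 1 at 6 h. DESeq2 called 0 of the 10 at both times. Over all genes it called 488 lower and 52 higher at 2 h, and 608 and 157 at 6 h. At 24 h, edgeR called 1 of 10 lower, Prdm14, and 0 higher, where 4.19% of all tested genes were called lower and 2.1% higher. DESeq2 called Prdm14 and Pou5f1 lower, among 812 genes lower and 460 higher in all. The median log2 changes of the 10 genes were −0.08, −0.10 and −0.14 at 2, 6 and 24 h, beside 0.01 for all tested genes at each time.

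Prdm14, a PR domain factor that represses FGF signalling and DNA methyltransferases in naive cells, gave 47.9 and 46.3 CPM of nascent RNA in DMSO, 44.1 and 46.2 CPM at 2 h, 40.8 and 46.4 CPM at 6 h, and 28 and 30.2 CPM at 24 h. Only the 24 h pair stood clearly apart from the DMSO pair. Its log2 change at 24 h was −0.69 ± 0.132 (SE; edgeR adjusted p = 0.018), and the call was lost when any 1 of the 4 libraries of DMSO or 24 h was left out. Pou5f1, which encodes OCT4, gave 82.5 and 85.5 CPM in DMSO, 67 and 77.5 CPM at 2 h, 58.7 and 64.1 CPM at 6 h, and 46 and 63.3 CPM at 24 h. All 6 depleted libraries were below both DMSO libraries. At 2, 6 and 24 h, 20.6%, 23.7% and 24.1% of all tested genes were lower without overlap. The log2 change of Pou5f1 was −0.22 ± 0.163 at 2 h, −0.45 ± 0.164 at 6 h and −0.62 ± 0.165 at 24 h (adjusted p = 0.68, 0.201 and 0.0622). At 24 h Pou5f1 was called with DESeq2 (adjusted p = 0.0323), without the filter (0.00345), with the replicate number as a block (0.00612) and without the second 24 h library (0.039).

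Nanog, with ZFP143 at its start, gave 231 and 368 CPM in DMSO, 203 and 261 CPM at 2 h, 223 and 280 CPM at 6 h, and 162 and 257 CPM at 24 h. The ranges of the depleted pairs and the DMSO pair overlapped at all 3 times, with replicate 1 below replicate 2 in every pair and the DMSO libraries far apart from each other. Within each replicate number, which the labels do not tie to a shared culture or day, the depleted library was below the DMSO library at all 3 times. Nanog was called at 24 h without the filter on low counts (−0.53, adjusted p = 0.0149) and with the replicate number as a block (−0.51, adjusted p = 0.0182). Over all genes, no filter gave 1178 lower and 923 higher calls at 24 h, and the block 1229 and 1022. The main fit gave 748 and 375. In the main fit the log2 changes of Nanog were −0.37 ± 0.281, −0.26 and −0.51 ± 0.282 (adjusted p = 0.685, 0.692 and 0.339). Zfp42, which encodes the naive state marker REX1 and also had a peak at its start, gave 605 and 808 CPM in DMSO and 748 and 774 CPM at 2 h, 746 and 785 CPM at 6 h and 601 and 748 CPM at 24 h. These pairs overlapped as well, with log2 changes of 0.11, 0.12 and −0.07.

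Klf2, a Krüppel-like factor of the naive network, gave 198 and 157 CPM in DMSO and 151 and 115 CPM at 24 h. These pairs did not overlap, and 24.1% of all tested genes were likewise lower without overlap. The log2 change of −0.42 did not pass (adjusted p = 0.186). Klf2 values at 2 and 6 h were 163 and 151, and 153 and 139 CPM. For the remaining 5 genes the log2 changes at 24 h lay between −0.21 for Sox2 and 0.10 for Klf4. Sox2, the partner of OCT4, gave 95.3 and 78.6 CPM in DMSO and 74.7 and 75.6 CPM at 24 h. Esrrb, an orphan nuclear receptor, was at 1330 and 1290 CPM in DMSO and 1310 and 1420 CPM at 24 h, and Tfcp2l1, a CP2 family factor downstream of LIF, at 932 and 952 CPM and then 1010 and 954 CPM. The depleted pairs of Esrrb overlapped the DMSO pair, and Tfcp2l1, at 1160 and 999 CPM at 2 h and 1180 and 1090 CPM at 6 h, lay above its DMSO pair without overlap at all 3 times, as did 18.6%, 23.4% and 23.9% of all tested genes at 2, 6 and 24 h, with log2 changes of 0.19, 0.27 and 0.06 that did not pass.

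Accumulated RNA was called lower for 4 of the 10 genes during depletion. At 24, 48 and 72 h both depleted libraries lay below both DMSO libraries for 10, 9 and 8 genes. The same held for 34.6%, 40.2% and 41.8% of all tested genes. Both lay above for 0, 1 and 2 genes, against 36.6%, 41.5% and 43.3% of all tested genes. Klf2 and Prdm14, 2 of the 10, were called lower at 24 h, where 3.42% of all tested genes were called lower (edgeR glmTreat against 1.5-fold, adjusted p under 0.01). At 48 and 72 h 4 genes were called lower, Nanog, Sox2, Klf2 and Prdm14, where 7.76% and 12% of all tested genes were. In the other direction 0 of 10 were called at any time, where 2.38%, 10.5% and 13.8% of all tested genes were called higher. The median log2 change of the 10 genes was −0.45, −0.54 and −0.59 at 24, 48 and 72 h, beside 0.02, 0.01 and 0.02 for all tested genes.

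**Figure D1:**
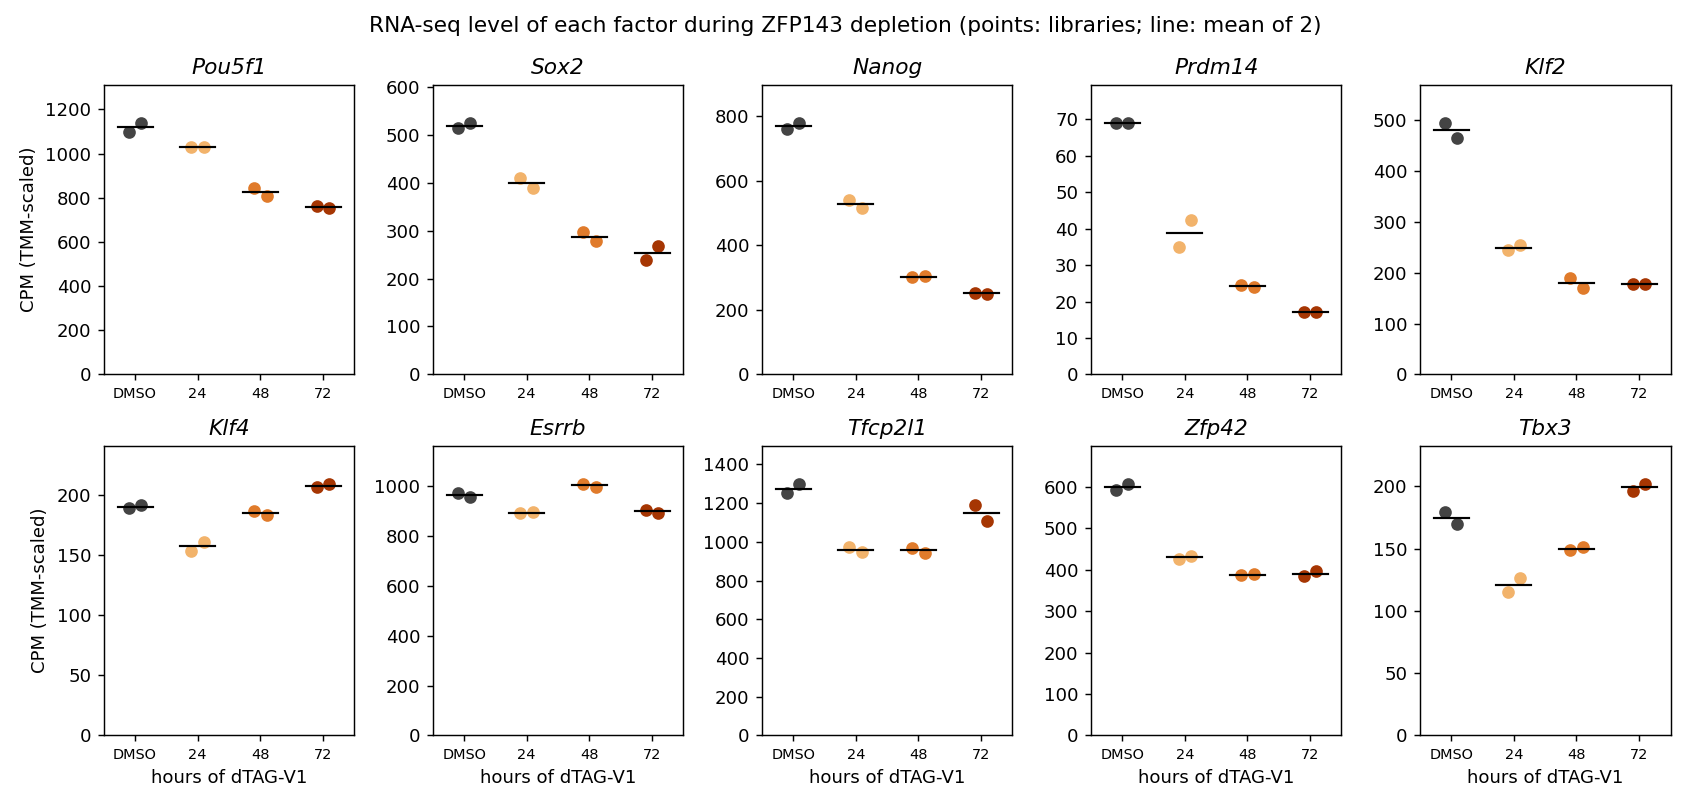
RNA-seq level of each of the 10 factors in CPM (vertical axis, from 0) in DMSO and after dTAG-V1 for 24, 48 or 72 h, with a point for each of the 2 libraries and a line at their mean. Nanog, Sox2, Klf2 and Prdm14 step down and stay down, while Esrrb ends at 905 and 894 CPM, just below its DMSO pair of 972 and 955 CPM.

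The plot of levels over the time course sets the genes apart by shape. Nanog, the homeodomain factor that stabilises the naive network, was at 759 and 779 CPM in DMSO, 540 and 514 CPM at 24 h, 301 and 304 CPM at 48 h and 253 and 248 CPM at 72 h. No depleted library reached a DMSO library, and each later pair was below the pair before it. Nanog fell by 60.7% at 48 h (log2 change −1.35 ± 0.0412, adjusted p = 5.4e-19) and by 67.4% at 72 h (−1.62 ± 0.0416, adjusted p = 4.4e-23), while its change at 24 h was −0.55.

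Prdm14 was at 69.1 and 69 CPM in DMSO, 35.1 and 42.4 CPM at 24 h, 24.6 and 24.1 CPM at 48 h and 17 and 17.2 CPM at 72 h. It had the lowest 72 h value of the 10 genes relative to DMSO. Its log2 changes were −0.84 ± 0.0758 (adjusted p = 0.00391), −1.50 ± 0.0816 (adjusted p = 9.29e-13) and −2.01 ± 0.0859 (adjusted p = 1.24e-17), and its level fell by 75.2% at 72 h. The 24 h call was lost when scaling used library size alone, under DESeq2, and without either DMSO library or the first 24 h library.

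Klf2 was at 495 and 465 CPM in DMSO, 245 and 254 CPM at 24 h, 189 and 170 CPM at 48 h and 177 and 177 CPM at 72 h. Most of its change was in place at 24 h, where its level fell by 48.1% (log2 change −0.95 ± 0.0464, adjusted p = 1.12e-08), and the pairs at 48 and 72 h overlapped. Sox2 was at 513 and 525 CPM in DMSO, 409 and 388 CPM at 24 h, 296 and 279 CPM at 48 h and 239 and 267 CPM at 72 h. Its log2 changes were −0.38, −0.85 ± 0.0466 (adjusted p = 1.4e-06) and −1.03 ± 0.0469 (adjusted p = 2.01e-11), the 48 h call being lost with library size alone.

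From 24 to 48 h the change itself was tested, and Nanog was the 1 gene of 10 called, lower by 0.80 ± 0.0413 on the log2 scale (adjusted p = 4.2e-05), where 0.934% of all tested genes were called lower and 2.37% higher. From 48 to 72 h 0 of 10 were called by edgeR or by DESeq2, and 0 had an unadjusted p under 0.05, where 0.876% of all tested genes were called lower and 0.89% higher. Under the thresholds used for TT-seq (adjusted p under 0.05, log2 change over 0.5), Prdm14 was called lower in both steps, where 6.79% and 7.76% of all tested genes were, and Nanog and Tbx3 joined the lower genes at 24 h against DMSO, where 8.47% were.

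Pou5f1 and Zfp42 were below DMSO without passing the test against 1.5-fold. Pou5f1 was at 1100 and 1140 CPM in DMSO, 1030 and 1030 CPM at 24 h, 844 and 807 CPM at 48 h and 762 and 754 CPM at 72 h, with a log2 change at 72 h of −0.57 (adjusted p = 0.875). Zfp42 was at 593 and 608 CPM in DMSO, 427 and 434 CPM at 24 h, 387 and 390 CPM at 48 h and 384 and 398 CPM at 72 h, with log2 changes of −0.48, −0.63 and −0.62. No depleted library of either gene reached a DMSO library. At 24, 48 and 72 h, 34.6%, 40.2% and 41.8% of all tested genes were lower without overlap. The changes of Pou5f1 and Zfp42 were not shown to exceed 1.5-fold, which is what this test asks. Under the thresholds used for TT-seq, Zfp42 was called lower at 48 h, making 5 of 10 where 16.9% of all tested genes were, and Zfp42 and Pou5f1 at 72 h, making 6 of 10 where 22% were.

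The other 4 genes ended within 0.20 of DMSO on the log2 scale at 72 h. Tfcp2l1 was at 1250 and 1300 CPM in DMSO, 972 and 947 CPM at 24 h, 968 and 943 CPM at 48 h and 1190 and 1110 CPM at 72 h. Tbx3, a T-box factor, was at 179 and 170 CPM, then 115 and 126, 149 and 151, and 196 and 202 CPM. Both were lowest at the middle times and back near DMSO at 72 h, Tbx3 above it with a log2 change of 0.19 and Tfcp2l1 below it with −0.15. Klf4, a Krüppel-like factor downstream of LIF, was at 189 and 191 CPM in DMSO, 153 and 161 CPM at 24 h, 186 and 183 CPM at 48 h and 206 and 209 CPM at 72 h. Esrrb moved by −0.11, 0.06 and −0.10. When scaling used library size alone, the sign turned for Pou5f1 and Esrrb at 24 h, for Klf4 at 48 h and for Esrrb and Tfcp2l1 at 72 h, none of which was called.

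**Figure D2:**
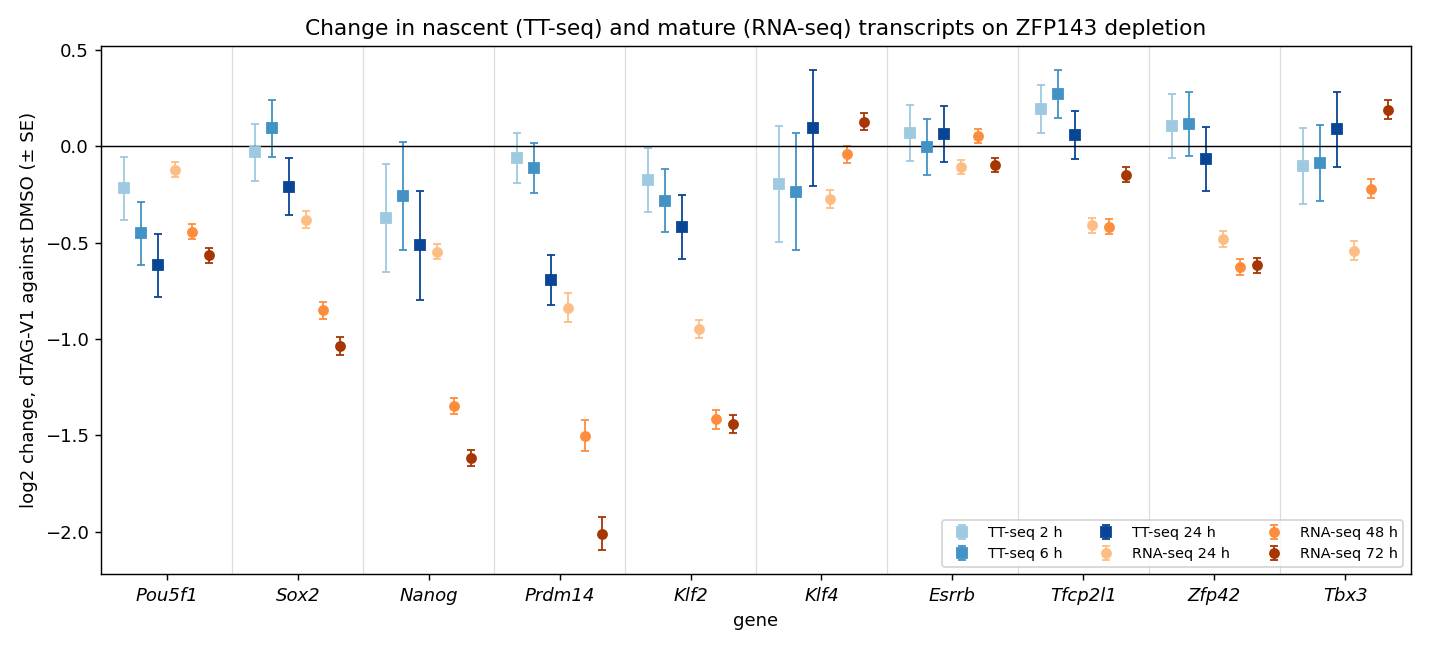
Log2 change against DMSO of each factor (horizontal groups) in TT-seq at 2, 6 and 24 h (squares) and in RNA-seq at 24, 48 and 72 h (circles), with error bars of 1 SE. Nanog reaches −1.62 in RNA-seq at 72 h with −0.51 in TT-seq at 24 h, and Esrrb lies between −0.11 and 0.07 in both assays.

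At the shared time of 24 h, the log2 changes in nascent and accumulated RNA were −0.42 and −0.95 for Klf2, −0.69 and −0.84 for Prdm14, −0.51 and −0.55 for Nanog, −0.62 and −0.12 for Pou5f1, and 0.06 and −0.41 for Tfcp2l1. The 2 assays differ in counting and normalization, and the difference between them was not tested.

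Before RA, the separate experiment repeated 24 h of dTAG-V1 with its own DMSO libraries, and 1 of 10 genes was called lower, Klf2, where 3.64% of all tested genes were called lower and 2.78% higher. Klf2 was at 541 and 641 CPM in DMSO and 289 and 288 CPM in dTAG-V1, which did not overlap. The log2 change was −1.03 ± 0.116 (edgeR adjusted p = 0.004), beside −0.95 at 24 h of the time course. The call was lost with library size alone, with DESeq2, and without the second DMSO library or either dTAG-V1 library. Prdm14 was at 50.5 and 53 CPM in DMSO and 34.6 and 39.5 CPM in dTAG-V1, a log2 change of −0.48 that did not pass. All 10 log2 changes were negative, those of Pou5f1 and Zfp42 turning positive with library size alone, and for 8 of 10 the dTAG-V1 pair lay below the DMSO pair without overlap, as for 31.1% of all tested genes.

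To ask how the network was taken apart on differentiation, RA cells were compared with cells before RA in each condition. In DMSO all 10 genes fell, where 18.1% of all tested genes were called lower and 25.9% higher, and the median log2 change of the 10 was −3.36 beside 0.03 for all. The summed level of the 10 genes went from 7240 and 7540 CPM to between 772 and 1130 CPM. In dTAG-V1 8 of 10 passed the test as lower, where 18.5% of all tested genes were called lower and 25% higher, with a median log2 change of −1.97. All 10 were below their level before RA with no overlap there, as were 45.2% of all tested genes. DESeq2 called 9, adding Klf4, and the thresholds used for TT-seq called 10, where 29.7% of all tested genes were called lower. The Pou5f1 call was lost in dTAG-V1 without any 1 of the 4 libraries, leaving 7, in DMSO without either library before RA, leaving 9, and in both conditions without the filter on low counts. There the sum went from 6040 and 6060 CPM to between 1420 and 1670 CPM, so both depleted RA libraries were above both DMSO RA libraries.

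**Figure D3:**
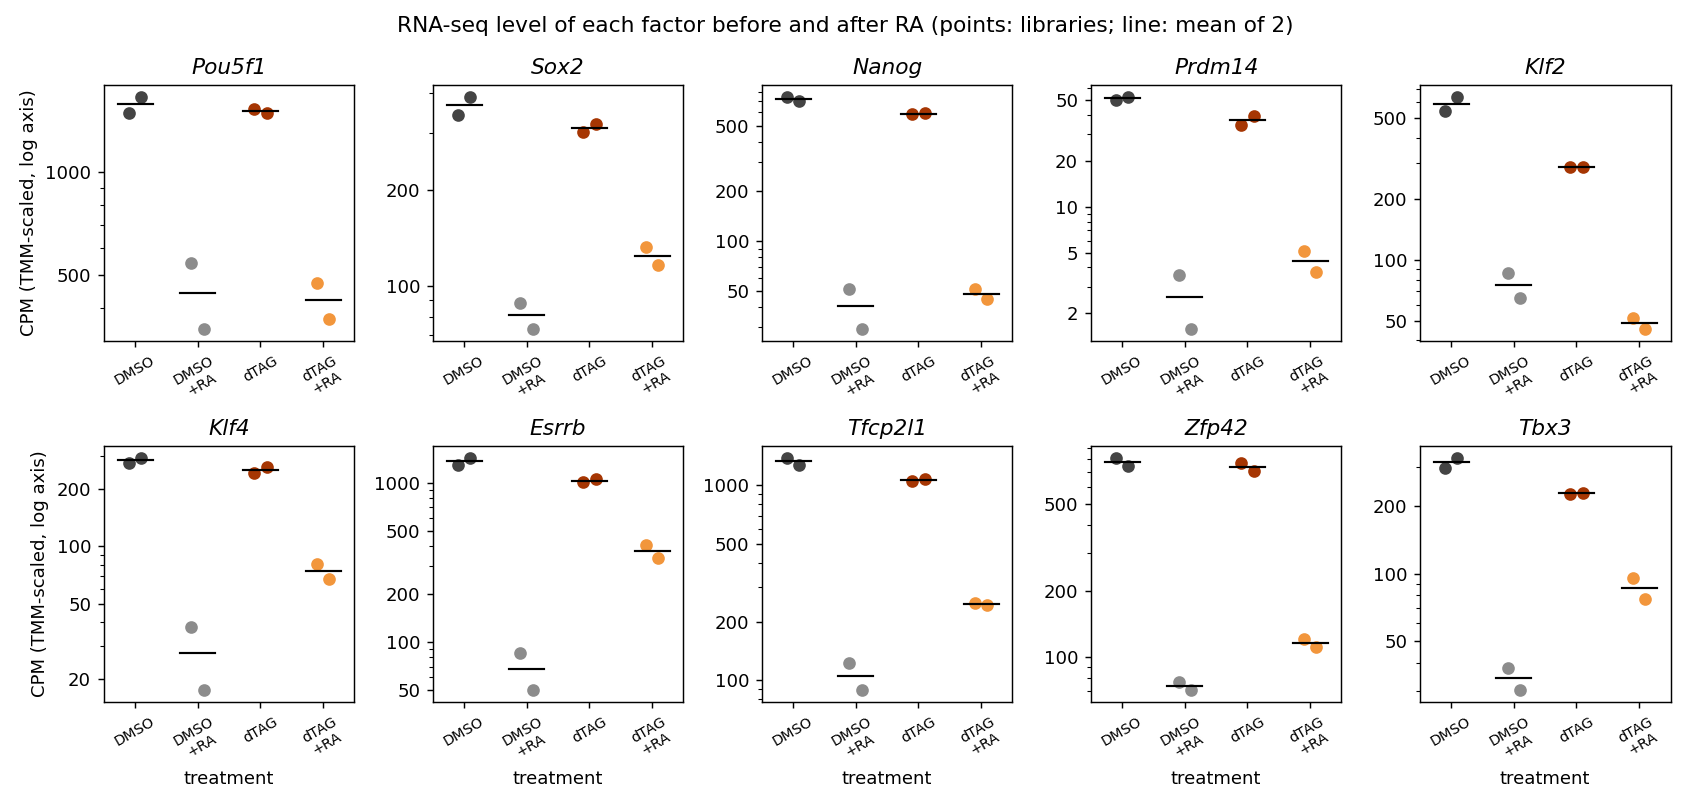
RNA-seq level of each factor in CPM (vertical log axis) in DMSO, DMSO with RA, dTAG and dTAG with RA, with a point for each of the 2 libraries and a line at their mean. Every factor drops with RA in both conditions, and for Esrrb the RA pair lies at 85.3 and 49.7 CPM in DMSO against 406 and 336 CPM in dTAG.

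Among the core factors, Pou5f1 kept the highest share of its level in DMSO. It was at 1490 and 1660 CPM before RA and 541 and 347 CPM after RA, 28.3% of its level, and in dTAG-V1 at 1530 and 1490 CPM and then 473 and 373 CPM, 28.1%. The RA pairs of both conditions overlapped. Sox2 went from 343 and 391 CPM to 88.5 and 73.1 CPM in DMSO, 22.1%, and from 302 and 322 CPM to 132 and 116 CPM in dTAG-V1, 39.8%. Nanog went from 749 and 709 CPM to 51.5 and 29.2 CPM in DMSO, 5.64%, and from 586 and 595 CPM to 51.1 and 44.7 CPM in dTAG-V1, 8.11%. After RA the depleted Sox2 pair was above the control pair, and the Nanog pairs overlapped.

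Esrrb showed the widest gap between the conditions. It went from 1290 and 1440 CPM to 85.3 and 49.7 CPM in DMSO, 5.01% of its level, and from 1010 and 1050 CPM to 406 and 336 CPM in dTAG-V1, 36%. All depleted RA libraries were well above all control RA libraries, although the order before RA was the opposite. The log2 change with RA was −4.32 ± 0.288 in DMSO (adjusted p = 0.000104) and −1.48 in dTAG-V1, which missed the threshold (adjusted p = 0.0116). Esrrb and Klf4 were the 2 genes not called in dTAG-V1, although no RA library of either reached a library before RA.

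Tbx3 went from 297 and 329 CPM to 38.1 and 30.2 CPM in DMSO, 11%, and from 226 and 230 CPM to 96.1 and 77 CPM in dTAG-V1, 37.9%. Tfcp2l1 went from 1390 and 1280 CPM to 122 and 88.6 CPM in DMSO, 7.9%, and from 1050 and 1080 CPM to 250 and 243 CPM in dTAG-V1, 23.1%. Klf4 went from 274 and 293 CPM to 37.5 and 17.5 CPM in DMSO, 10%, and from 242 and 261 CPM to 80.7 and 67.3 CPM in dTAG-V1, 29.4%. For these 3 genes too the depleted cells began lower and ended higher than the controls, with no overlap after RA.

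Zfp42 went from 815 and 749 CPM to 76.9 and 70.5 CPM in DMSO, 9.45%, and from 773 and 707 CPM to 121 and 111 CPM in dTAG-V1, 15.7%. Prdm14 went from 50.5 and 53 CPM to 3.58 and 1.57 CPM in DMSO, 5.33%, and from 34.6 and 39.5 CPM to 5.15 and 3.72 CPM in dTAG-V1, 11.9%. Klf2 went from 541 and 641 CPM to 86.2 and 64.7 CPM in DMSO, 12.8%, and from 289 and 288 CPM to 51.8 and 45.4 CPM in dTAG-V1, 16.8%. Klf2 was thus the 1 gene whose depleted pair stayed below the control pair after RA without overlap, as the pairs of 39.4% of all tested genes did, at a log2 difference of −0.64 (adjusted p = 0.429).

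Within RA cells, dTAG-V1 was compared with DMSO directly, and 3 of 10 genes were called higher, Esrrb, Tbx3 and Tfcp2l1, where 9.04% of all tested genes were called higher and 7.36% lower. Esrrb was 5.42-fold higher (log2 change 2.44 ± 0.27, adjusted p = 0.00329), Tbx3 2.51-fold (1.33 ± 0.112, adjusted p = 7.19e-06) and Tfcp2l1 2.33-fold (1.22 ± 0.106, adjusted p = 1.5e-05). For 7 of 10 genes both depleted libraries were above both control libraries, as for 40.1% of all tested genes. Of these, Klf4 (1.38 ± 0.346, adjusted p = 0.107), Prdm14 (0.68, adjusted p = 0.472), Zfp42 (0.65, adjusted p = 0.263) and Sox2 (0.61, adjusted p = 0.501) did not pass the test. Nanog and Pou5f1 differed by 0.22 and −0.07. Under the thresholds used for TT-seq 8 of 10 were called, Sox2, Klf4, Zfp42 and Prdm14 also higher and Klf2 lower, where 20.9% of all tested genes were called higher and 18.6% lower.

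The difference between the conditions in the log2 change with RA, the interaction (dTAG-V1 minus DMSO), was tested itself. It was called higher for 6 of 10 genes, where 13.7% of all tested genes were called higher and 18% lower, and the median of the 10 genes was 1.01. The value was 2.84 ± 0.363 for Esrrb (edgeR quasi-likelihood adjusted p = 0.00263), 1.78 ± 0.149 for Tbx3 (adjusted p = 9.39e-08) and 1.55 ± 0.146 for Tfcp2l1 (adjusted p = 2.12e-07). The other called genes were Prdm14 at 1.16 ± 0.295, Sox2 at 0.85 ± 0.126 and Zfp42 at 0.73 ± 0.109, with adjusted p-values of 0.00441, 1.64e-05 and 8.27e-06. Not called were Klf4 at 1.56 ± 0.457 (adjusted p = 0.053, called with DESeq2 size factors, with library size alone and with the DESeq2 Wald test at 0.048, 0.043 and 0.00885), Nanog at 0.52 (adjusted p = 0.287), Klf2 at 0.39 (adjusted p = 0.0892) and Pou5f1 at −0.01 (adjusted p = 0.986). The comparisons before RA, after RA and of RA within a condition share libraries with it and are not separate evidence. The depleted RA cells also had 48 h of dTAG-V1 against 24 h before RA, so the interaction includes a second day of depletion, which cannot be told apart from RA here. In the time course without RA that second day gave log2 changes of −0.80 for Nanog, −0.67 for Prdm14 and −0.47 for Sox2. It gave −0.47 for Klf2, −0.32 for Pou5f1, −0.15 for Zfp42 and −0.01 for Tfcp2l1. The changes were 0.16 for Esrrb, 0.23 for Klf4 and 0.32 for Tbx3.

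**Figure D4:**
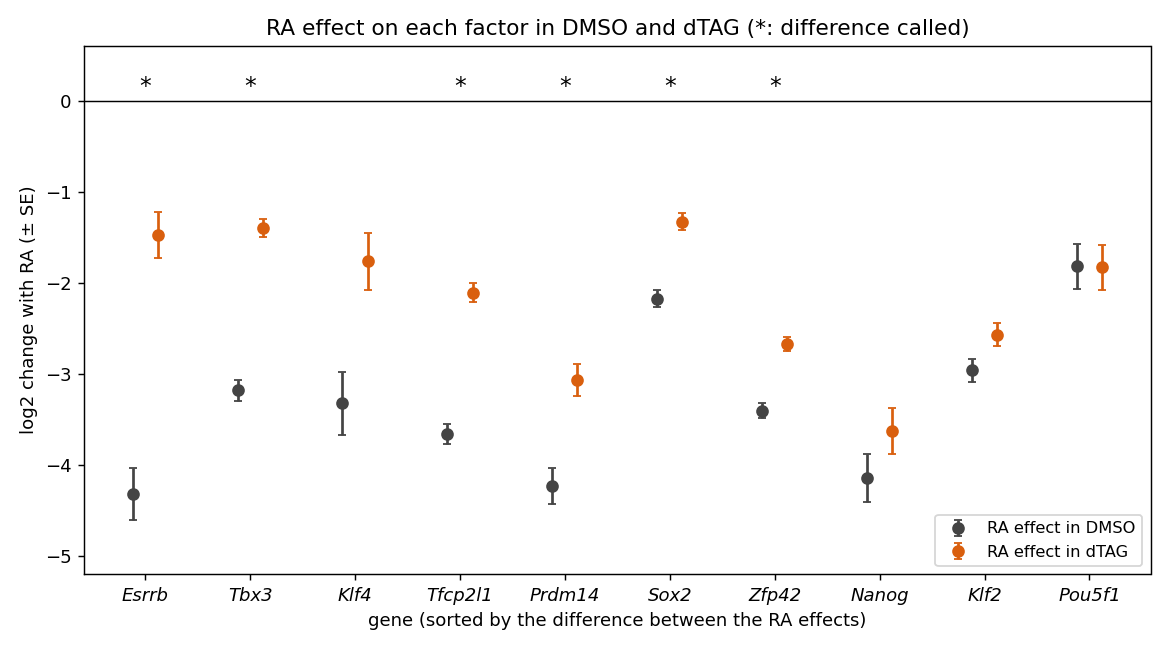
Log2 change with RA of each factor in DMSO and in dTAG, as points with error bars of 1 SE, and an asterisk where the interaction was called. Esrrb, Tbx3 and Tfcp2l1 show the widest gaps among the called factors, and the Pou5f1 points at −1.82 and −1.83 are level.

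The RA libraries of DMSO were less alike than the other pairs. Replicate 1 was above replicate 2 for 10 of 10 genes in both RA groups, by 1.09 to 2.28 times in DMSO and 1.03 to 1.38 times in dTAG-V1, while before RA it was above for 3 of 10 in each group. Without DMSO RA replicate 1 or without replicate 2, the interaction was 3.32 or 2.54 for Esrrb, 1.99 or 1.66 for Tbx3, 1.82 or 1.37 for Tfcp2l1, 1.99 or 0.80 for Prdm14, 1.02 or 0.74 for Sox2 and 0.82 or 0.69 for Zfp42, all called. Klf4 was called without either, at 2.28 or 1.18. Nanog and Klf2 were called only without replicate 1, at 1.04 and 0.64, against 0.22 and 0.23 without replicate 2. For dTAG-V1 against DMSO after RA, the Esrrb call was lost without either depleted RA library, at 2.33 and 2.60 with adjusted p-values of 0.021 and 0.0154.

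The order of the levels after RA differed between the conditions. Per exon length, DMSO RA cells had Pou5f1 at 197 ± 61.2 CPM per kb, Klf2 at 40.8 ± 8.24, Sox2 at 39.3 ± 5.28, Zfp42 at 39.2 ± 2.4, Nanog at 18 ± 7.04, Esrrb at 11.2 ± 4.17 and Tfcp2l1 at 11.1 ± 2.48. Klf2, Sox2 and Zfp42 did not differ beyond their spread, nor did the last 2. In dTAG-V1 RA cells Pou5f1 was at 188 ± 31.4 CPM per kb, followed by Zfp42 at 61.8 ± 3.71, Esrrb at 61.3 ± 8.21 and Sox2 at 60.4 ± 5.68, which lay within each other's spread, and then Klf2 at 26.3 ± 2.41. Esrrb thus had rank 6 in DMSO and rank 3 in dTAG-V1. Prdm14 was last in both, at 1 ± 0.554 and 1.73 ± 0.393 CPM per kb.

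Of 20 other genes of the pluripotency network, 0 were called in TT-seq at 2 and 6 h by edgeR, with 4 at an unadjusted p under 0.05 at each time, and 1 at 24 h, Klf5, a Krüppel-like factor, which was higher by 0.87 ± 0.13 (adjusted p = 0.00614). In RNA-seq 3, 7 and 7 were called lower and 0, 1 and 1 higher at 24, 48 and 72 h, where 3.42%, 7.76% and 12% of all tested genes were lower and 2.38%, 10.5% and 13.8% higher. The median log2 change of the list at 72 h was −0.32. Dppa3, a maternal factor that guards DNA methylation, had a log2 change of −4.84 ± 0.123 at 72 h (adjusted p = 2.04e-26), Dppa5a one of −1.85, and Nr0b1, a nuclear receptor of the network, one of 1.39. With RA 15 of 20 fell in DMSO and 15 of 20 in dTAG-V1, where 18.1% and 18.5% of all tested genes did, with medians of −1.70 and −1.39, led in DMSO by Tdh, the threonine dehydrogenase of mESCs, at −8.68, and by Spic at −7.50. The interaction was called higher for 7 and lower for 3 of the 20, where 13.7% and 18% of all tested genes were, with a median of 0.33 beside −0.08 for all tested genes.

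The counts of the lists that follow stand beside 12% of all tested genes called lower and 13.8% higher at 72 h of depletion, and 18.1% lower and 25.9% higher with RA in DMSO. Of 7 genes of the LIF and STAT3 pathway, 2 were called lower at 72 h of depletion, Pim1 at −3.11 and Pim3 at −0.80, and 2 higher, Socs3 at 0.84 and Stat3 at 0.71. With RA in DMSO 4 fell and 2 rose, including Socs3 at −2.27 and Lifr, the LIF receptor, at −1.29, and Jak1 at 0.97 and Pim1 at 0.79. Of 6 tested ERK target genes, 2 fell at 72 h, Etv4 at −1.19 and Etv5 at −0.86, and 2 rose, Fos at 2.05 and Spry2 at 1.14. Of 7 tested with RA in DMSO, 2 fell and 3 rose, among them Etv5 at −2.30 and Egr1 at 3.13. The interaction was called higher for 4 of 7 ERK target genes and lower for 0. For the LIF and STAT3 pathway it was called higher for 1 of 7 and lower for 1. Of all tested genes 13.7% were called higher and 18% lower there.

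Markers of other states and cell types moved in the same libraries, and their part in the changes of the 10 genes was not tested. At 72 h of depletion 1 of 3 tested formative state markers fell, Otx2 at −1.49, and 3 of 4 tested primitive endoderm markers rose, Sox17 at 3.06, Dab2 at 2.59 and Pdgfra at 2.22. The summed level of the primitive endoderm markers was 6.43 to 7.62 CPM in DMSO and 18.9 to 19.2 CPM at 72 h. Of 4 tested neural markers, Tubb3 at −0.78 and Nes at −0.76 fell, and Sox1 at 2.27 and Zic1 at 6.99 rose. Zic1 had 0 counts over the DMSO pair and 33 over the 72 h pair. Sox17, of the primitive endoderm markers, had 4 and 36. The sizes of these 2 changes therefore rest on very few reads. Gsc, the 1 tested mesendoderm marker, fell by 1.61 on the log2 scale, the 1 tested trophectoderm marker was not called, the 1 tested fibroblast marker, Col1a1, rose by 2.50, and the 1 tested marker of 2-cell-like cells, Zscan4d, rose by 2.75. The sums of the fibroblast and 2-cell-like markers stayed at or below 2.4 and 3.33 CPM in every library of the time course.

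With RA in DMSO 7 of 7 primitive endoderm markers rose, and their sum went from 4.93 and 6.08 CPM to 42.1 to 44.6 CPM, against 57.9 to 60.6 CPM in dTAG-V1 with RA. The 5 markers of 2-cell-like cells all rose too, to a sum of 47.3 to 47.7 CPM in DMSO and 150 to 180 CPM in dTAG-V1. Formative state markers were called lower for 3 and higher for 2 of 5, neural markers lower for 2 and higher for 3 of 5, mesendoderm markers lower for 1 and higher for 1 of 4, trophectoderm markers lower for 1 and higher for 1 of 2, and both tested fibroblast markers rose, to a sum of 5.17 to 8.87 CPM in DMSO and 18.5 to 18.8 CPM in dTAG-V1. The sums of the primitive endoderm, 2-cell-like and fibroblast markers were thus higher in depleted than in control RA cells, as was the sum of the 10 naive factors. Gene by gene, the counts stand beside 9.04% of all tested genes called higher and 7.36% lower in dTAG-V1 after RA. In the interaction 13.7% were called higher and 18% lower. After RA, dTAG-V1 was called higher for 4 of 5 2-cell-like and 1 of 2 fibroblast markers, and lower for none of either. For primitive endoderm it was called higher for 1 of 7, Gata6 at 1.18, and lower for 1, Dab2 at −1.60. The interaction was called lower for Dab2 at −2.31 and Sox7 at −3.12 and higher for 0 of these 7. The mesendoderm sum was also higher in depleted RA cells, at 9.13 to 10 CPM against 5.39 to 6.41 CPM, and so was the trophectoderm sum, at 13.3 to 14.6 CPM against 9.75 to 10.6 CPM. After RA 1 of 4 mesendoderm and 1 of 2 trophectoderm markers were called higher and 0 lower. The interaction was called higher for 3 of 4 mesendoderm markers and lower for 1, Gsc at −1.41, and for 0 trophectoderm markers. The neural sum was lower, at 63.7 to 68.7 CPM in depleted against 113 to 129 CPM in control RA cells. The formative sum was at 259 to 280 CPM against 287 to 308 CPM, while its genes went both ways: after RA Otx2 was called higher in dTAG-V1, at 2.63, and Pou3f1 lower, at −1.53, and the interaction was called higher for Otx2 at 1.83 and Lef1 at 1.27 and lower for Pou3f1 at −1.87. After RA, Pax6 was lower in dTAG-V1 than in DMSO by a log2 change of −1.97 ± 0.119 and Nes by one of −1.55 ± 0.125 (adjusted p = 1.26e-10 and 1.11e-07), while Zic1 was higher at 1.67 ± 0.179 (adjusted p = 4.07e-06). The interaction was called lower for Pax6 at −2.89, Nes at −1.01 and Sox1 at −0.79, and higher for Tubb3 at 0.61.

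Likeness of pattern was measured over the 9 log2 changes against DMSO in the 3 tables as the root mean square difference between genes, over 8828 genes. Nearest to Nanog were 1700097N02Rik at 0.21, Prdm14 at 0.26 and Oas1a at 0.27, where the median gene differed from Nanog by 1.95 (log2 units). Nearest to Esrrb were Cpsf4l at 0.28, Cpt1a at 0.30 and Il6ra at 0.35. Nanog and Prdm14 were each other's nearest among the 10, as were Klf4 and Tbx3 at 0.16. The nearest gene was Ints5 for Pou5f1 at 0.11, Etv5 for Sox2 at 0.15, Apod for Klf2 at 0.25, Il6ra for Tbx3 at 0.14, and Zfp42-ps1 for both Zfp42 and Tfcp2l1 at 0.13 and 0.24. The changes within a table share their DMSO libraries, so likeness is a description.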

How the data were processed

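The members and gene lists were chosen with earlier results of these data known. Per the labels and methods, the authors mapped reads with STAR to mm10 and deposited raw read counts per gene on GENCODE vM25, from HTSeq over whole genes after removal of duplicates for TT-seq and from STAR for RNA-seq, where the strand setting is not given in the sources used here. The authors called peaks with MACS2 on BWA alignments and deposited 1 list per factor. In the deposited ZFP143 list the authors gave the MACS2 fold enrichment of each peak over input, a ratio, and its −log10 q value computed by MACS2, and in the CTCF list positions pooled over DMSO and dTAG cells. Neither has replicates.

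Genes were named and placed by GENCODE vM21 (mm10), in which 55141 of 55401 identifiers were found. A gene was kept if 4 or more of a table's 8 libraries had over 10 counts, and kept genes were fitted with edgeR 4.0.16 (limma 3.58.1, R 4.3.3) in 1 model of 4 groups per table, with TMM scaling and robust spread. CPM use TMM-scaled library sizes. TT-seq and interaction contrasts used the quasi-likelihood test (Benjamini-Hochberg adjusted p under 0.05, log2 change over 0.5), and RNA-seq contrasts used glmTreat against 1.5-fold (adjusted p under 0.01). The code was tested on simulated data. A peak was at a start when it overlapped the window from 2 kb before to 1 kb after an annotated transcript start and had its centre under 2 kb from it.

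The text names all 10 members, Zfp143, up to 2 called genes at each end of each other list (pluripotency network, LIF and STAT3, ERK targets, and formative, primitive endoderm, 2-cell-like, trophectoderm, neural, mesendoderm and fibroblast markers) at 72 h and with RA in DMSO, and genes nearest in pattern with a mean of at least 100 counts. Klf5 in TT-seq was named after its value was seen. Pdgfra at 72 h and the list genes named for dTAG-V1 after RA and for the interaction also fall outside this rule. No libraries were identical. Alternatives were other scalings, DESeq2 1.42.0, no filter, exchanged thresholds, a replicate block, a non-robust spread estimate added after seeing the data, and each library left out. Same-numbered replicates were checked for shared deviations. Hi-C, ATAC-seq, 4C and signal tracks were not used here.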

Additional observations from a re-analysis of the deposited data

Results flagged for a closer look

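For 6 factors the RA effect differed between DMSO and dTAG-V1 in the interaction test of edgeR, with the fall being smaller in depleted cells, which had a second day of depletion during RA. On the log2 scale the difference was 2.84 for Esrrb, 1.78 for Tbx3, 1.55 for Tfcp2l1, 1.16 for Prdm14, 0.85 for Sox2 and 0.73 for Zfp42. All 6 were called when either DMSO RA library was left out. With 2 libraries a group, no test for a library standing apart from its group was made.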

How the results depend on the processing

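Of 1430 recomputed log2 changes of the members, 1317 kept their direction and their side of the threshold, 26 lost and 38 gained the call, and 49 changed sign, 0 of them called. The depth and 2 libraries a group limit small changes, most of all in TT-seq. Library size alone moved the median of all genes by 0.132, 0.199 and 0.218 at 24, 48 and 72 h, 0.135 before RA, 0.209 after RA, and 0.319 and 0.392 with RA in DMSO and dTAG-V1. Some settings also moved the calls over all genes. No filter gave 1178 lower and 923 higher in TT-seq at 24 h, against 748 and 375. After RA, library size alone gave 755 lower and 2090 higher, against 1172 and 1439. Causes of the changes below were not tested.

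Members called in TT-seq at 24 h numbered 3 with no filter (Nanog and Pou5f1 added), 2 with the DESeq2 Wald test (Pou5f1 added), 3 with the replicate block (Nanog and Pou5f1 added), and 0 to 1 with a library left out, against 1. In RNA-seq at 24 h the 2 became 1 with library size alone or DESeq2, 4 with the TT-seq thresholds, and 1 to 2 with a library left out. With those thresholds 2 members were called between 24 and 48 h and 1, Prdm14, between 48 and 72 h. Before RA the 1 became 0 with library size alone or DESeq2 and 0 to 1 with a library left out. After RA the 3 became 5 with library size alone (Sox2 and Zfp42 added), 8 with the TT-seq thresholds, and 2 to 5 with a library left out. Leaving out a library gave 6 to 9 called interactions, 9 to 10 calls with RA in DMSO, 7 to 7 in dTAG-V1 (Pou5f1 lost without any of 4 libraries), and 4 to 4 at 48 and 72 h. Pou5f1 was lost with RA in DMSO without either library before RA and, in both conditions, without the filter. Esrrb after RA was lost without the filter (2.41, adjusted p = 0.016). Klf4 was added to the interaction by DESeq2 size factors, library size alone and the Wald test, and to RA in dTAG-V1 by the Wald test. The TT-seq thresholds gave 5 and 6 members at 48 and 72 h and 10 with RA in dTAG-V1. The non-robust estimate, added after seeing the data, called Klf4 after RA, Nanog and Klf4 in the interaction, and Klf4 and Esrrb with RA in dTAG-V1. Within 10 kb 3 members had a ZFP143 peak, against 2 at the start.

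Sign changes with library size alone were Pou5f1 to 0.01 and Esrrb to 0.03 at 24 h, Klf4 to 0.16 at 48 h, Esrrb to 0.12 and Tfcp2l1 to 0.07 at 72 h, Tfcp2l1 to 0.06 between 24 and 48 h, Pou5f1 to 0.07 and Zfp42 to 0.05 before RA, and Pou5f1 to 0.14 after RA. The Pou5f1 interaction became 0.04 with DESeq2 size factors, 0.06 with library size alone, 0.05 with the Wald test and 0.01 with the block. Leaving out a library gave, in TT-seq at 2 h, −0.67 to 0.02 for Nanog, −0.18 to 0.12 for Sox2, −0.56 to 0.11 for Klf4, −0.09 to 0.23 for Esrrb, −0.09 to 0.35 for Zfp42 and −0.33 to 0.10 for Tbx3. At 6 h it gave −0.57 to 0.13 for Nanog, −0.03 to 0.22 for Sox2, −0.62 to 0.07 for Klf4, −0.11 to 0.09 for Esrrb, −0.09 to 0.35 for Zfp42 and −0.37 to 0.15 for Tbx3. At 24 h it gave −0.11 to 0.35 for Klf4, −0.27 to 0.17 for Zfp42 and 0.00 to 0.20 for Tbx3. In RNA-seq it gave −0.02 to 0.02 for Tfcp2l1 between 24 and 48 h, −0.10 to 0.05 for Klf2 and −0.02 to 0.03 for Zfp42 between 48 and 72 h. Pou5f1 ranged over −0.14 to 0.02 before RA, −0.34 to 0.30 after RA and −0.28 to 0.37 in the interaction, and Nanog over −0.09 to 0.73 after RA. A group left with 1 library is assumed to vary like the others.

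Same-numbered replicates had deviations from group means correlated at 0.193 to 0.631 in TT-seq, −0.042 to 0.062 in the time course and −0.099 to 0.125 in the RA table, over 6 pairs of groups each. In TT-seq all 6 correlations were thus above 0, so same-numbered libraries there shared part of their deviations. The labels do not say what the libraries of a number have in common. The replicate block raised calls over all genes in TT-seq from 436, 512 and 748 lower to 686, 993 and 1229 at 2, 6 and 24 h, and from 31, 74 and 375 higher to 98, 377 and 1022. It changed no count of called members but that of TT-seq at 24 h.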
